A study of Mus musculus with 8 samples.

Results

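The transcripts of 10 genes of the TGF-β system were followed in WT and TIGAR-knockout mouse hearts. They are the ligands *Tgfb1*, *Tgfb2*, and *Tgfb3*, the receptors *Tgfbr1*, *Tgfbr2*, and *Tgfbr3*, and the latent TGF-β binding proteins (LTBPs) *Ltbp1*, *Ltbp2*, *Ltbp3*, and *Ltbp4*. The genes were taken by symbol from a table of 16994 genes, all 10 were found, and all 10 passed the filter on low counts, a mean CPM (the count relative to its library size) of at least 1, which 12999 genes met. The 8 libraries, 1 per genotype and region, came from WT and TIGAR KO hearts, the latter called TKO and lacking TIGAR in the whole body. For each genotype the regions were left ventricle heart tissue and the infarct zone, border zone, and remote zone. The mice were male, and myocardial infarction (MI) was induced by permanent ligation of the left anterior descending coronary artery at 16 weeks of age. Infarct zone RNA was pooled from 3 mice per genotype. The pooling of the other libraries, whether regions shared hearts, and whether the left ventricle donors had a sham operation are not stated in the sources used here. No group had a replicate, so a difference between a pair of libraries could not be set against replicate spread.

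TGF-β is secreted in a latent form, with the growth factor held inside its own propeptide. Most LTBPs bind that propeptide covalently and anchor the complex to fibrillin microfibrils, from which integrins, thrombospondin, and proteases can release the active ligand. The ligand then joins the type II receptor TGFBR2 with the type I receptor TGFBR1, which phosphorylates SMAD transcription factors, whereas TGFBR3 (betaglycan) presents ligand, TGFB2 above all. In the injured heart the pathway is known for turning fibroblasts into matrix-producing myofibroblasts and for building the scar.

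Total counts ran from 27429240 to 33799249 per library. *Tigar*, the targeted gene, had 1066 to 2215 counts in the 4 WT libraries and 51 to 87 in the 4 TKO libraries. The infarct zone libraries stood apart from the rest: transcripts encoded by mitochondrial DNA took 20.7% of the WT and 27.9% of the TKO infarct counts against 36.6% to 39.3% elsewhere, and the edgeR scaling (TMM) factors were 1.54 and 1.26 against 0.866 to 0.956. Levels below are CPM of the library size after that scaling (scaled CPM). The 8 cardiomyocyte markers, whose summed level ran from 7817 scaled CPM in the WT infarct zone to 35382 in the WT left ventricle, were all above 3 counts in every library.

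Promoter sequences (250 bases before the start site and 50 from it, from RefSeq on GRCm38.p6) were at hand for 8 of the 10 genes. Those of 3 genes are shown, picked after their letters and levels were seen: *Ltbp2*, the member with the widest range over the libraries (78.3-fold), and the ligands *Tgfb2* (4.73-fold) and *Tgfb1* (1.74-fold). Capitals mark TATAAA, the core of the TATA box, and CAGAC or its reverse complement GTCTG, a SMAD-binding element. The windows are chr12:84876442-84876741 on the minus strand for *Ltbp2*, chr1:186705940-186706239 on the minus strand for *Tgfb2*, and chr7:25686752-25687051 on the plus strand for *Tgfb1*.
Ltbp2: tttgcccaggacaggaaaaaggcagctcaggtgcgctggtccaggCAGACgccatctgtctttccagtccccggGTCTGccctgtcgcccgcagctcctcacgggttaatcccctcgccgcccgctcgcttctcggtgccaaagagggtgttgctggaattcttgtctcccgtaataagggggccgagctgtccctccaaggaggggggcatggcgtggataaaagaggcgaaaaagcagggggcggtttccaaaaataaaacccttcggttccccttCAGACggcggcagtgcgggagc
Tgfb2: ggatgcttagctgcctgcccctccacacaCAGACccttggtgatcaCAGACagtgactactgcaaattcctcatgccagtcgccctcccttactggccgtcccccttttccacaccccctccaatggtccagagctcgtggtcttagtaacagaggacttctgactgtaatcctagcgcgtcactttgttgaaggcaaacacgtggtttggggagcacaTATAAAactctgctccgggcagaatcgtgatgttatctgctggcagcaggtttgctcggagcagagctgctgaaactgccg
Tgfb1: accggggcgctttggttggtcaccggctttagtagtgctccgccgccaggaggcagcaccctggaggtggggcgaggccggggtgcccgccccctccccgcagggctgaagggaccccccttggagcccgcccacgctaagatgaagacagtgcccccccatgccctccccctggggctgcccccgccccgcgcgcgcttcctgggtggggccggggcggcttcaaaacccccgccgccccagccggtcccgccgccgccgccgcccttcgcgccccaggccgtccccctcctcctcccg
Counting the start site as base 1, the *Tgfb2* window held TATAAA at -31 and CAGAC at -221 and -204. The *Ltbp2* window held CAGAC at -205 and 29 and GTCTG at -176, which were all of its matches to these motifs. Neither motif was found in the *Tgfb1* window, which had 77.0% GC and 6 matches to the GC box GGGCGG on either strand. GGGCGG had 2 matches in the *Ltbp2* window and 0 in the *Tgfb2* window. Searched on both strands, with overlapping matches counted, TATAAA was in 13.6%, CAGAC in 49.6%, and GGGCGG in 35.7% of 32851 promoter windows of the same length. Among the members not shown, CAGAC had 1 and 2 matches in the *Ltbp1* windows (1.33-fold range) and 0 in the 3 *Ltbp4* windows (2.99-fold). It had 0 and 1 in the *Tgfbr1* windows (4.46-fold), 1 in *Tgfbr2* (3.58-fold), and 2 in *Ltbp3* (4.85-fold). These matches are letters in a window and were not measured as sites, and their relation to the ranges was not tested.

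Among the ligands, *Tgfb3* transcripts changed most between regions. *Tgfb3* (ENSMUSG00000021253, GRCm38 chromosome 12, 86056745 to 86079041, minus strand) stood in WT hearts at 12.4 (left ventricle), 112 (infarct), 36.3 (border), and 19.98 scaled CPM (remote). In TKO hearts it stood at 12.4, 76.4, 21.2, and 13.9 in the same order. The left ventricles were level, and each of the 3 post-MI zones was higher in WT than in TKO. Across both genotypes the infarct zone exceeded the left ventricle by 2.89 ± 0.19 on the log2 scale (estimate ± SE), a 7.41-fold rise (adjusted p = 0.000314, edgeR quasi-likelihood test).

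*Tgfb2* (ENSMUSG00000039239, chromosome 1, 186622792 to 186705989, minus strand), the isoform that depends most on betaglycan, was the scarcest ligand. Its WT levels in the order left ventricle, infarct, border, and remote were 7.41, 35.0, 21.0, and 12.5 scaled CPM. The TKO levels were 11.5, 27.3, 14.5, and 9.73. In WT hearts the left ventricle was the lowest library, whereas in TKO hearts the remote zone lay below the left ventricle. *Tgfb2* rose 3.24-fold in the infarct zone (log2 1.70 ± 0.27, adjusted p = 0.00277).

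*Tgfb1* (ENSMUSG00000002603, chromosome 7, 25687002 to 25705077, plus strand), the ligand of platelets and leukocytes as well as fibroblasts, ranged only 1.74-fold over the 8 libraries. In the same order WT levels were 25.7, 42.7, 31.8, and 32.4 scaled CPM, and TKO levels were 29.0, 34.6, 24.5, and 25.7. Its infarct zone rise was 1.40-fold (log2 0.49 ± 0.15, adjusted p = 0.0314). That call depended on single libraries, as the adjusted p lay between 0.0504 and 0.141 without the WT left ventricle, either infarct zone, either remote zone, the TKO border zone, or both libraries of the border or remote zone.

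**Figure D1:**
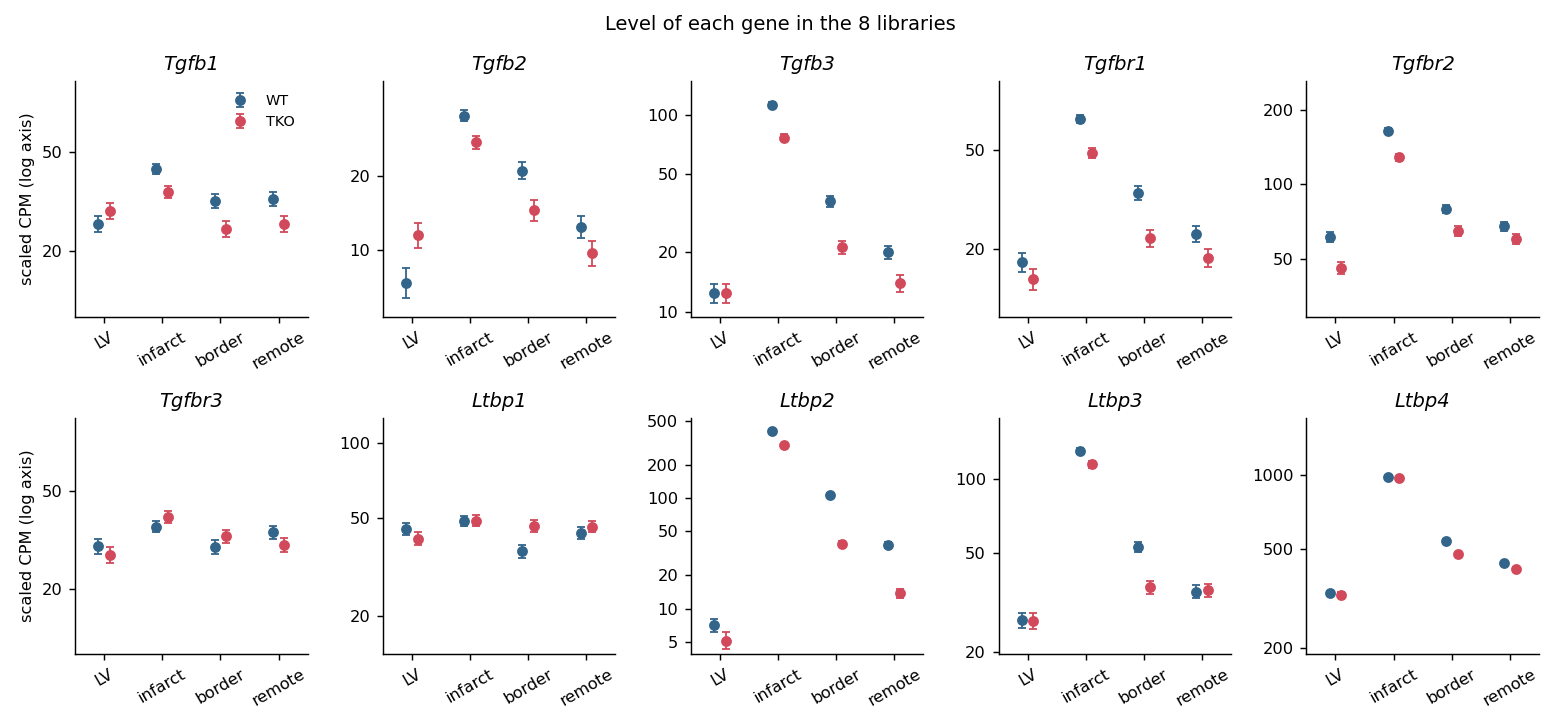
Level of each gene by region in scaled CPM (log axis), with 1 point per library, WT in blue and TKO in red, and bars giving the 95% exact Poisson interval of the count. *Ltbp2* spans 5.14 to 402 scaled CPM and *Ltbp1* only 36.7 to 48.8, and the WT infarct zone is the highest library for 8 of the 10 genes.

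Because reads scale with transcript length, ligands were compared with each other per kilobase of the longest coding transcript. *Tgfb1* made up 69.8% of the summed ligand level in the WT left ventricle and 69.2% in the TKO left ventricle. In the infarct zone its share was 32.9% in WT and 36.3% in TKO, and *Tgfb3* came first with 55.6% and 51.5%. The order of ligands in the infarct zone was thus the reverse of the left ventricle's for these 2 genes in both genotypes. The shares depended on the length used. With the union of all exons, *Tgfb1* made up 50.8% (WT) and 50.4% (TKO) in the left ventricle and 17.8% and 20.1% in the infarct zone. The infarct zone and left ventricle kept their leading ligand, but *Tgfb3* came before *Tgfb1* in both border zone libraries, where the longest transcript put *Tgfb1* first. Per kilobase of the longest coding transcript, the summed ligand level was 16.9 in the WT and 19.2 in the TKO left ventricle, and 59.6 and 43.9 in the infarct zones.

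**Figure D2:**
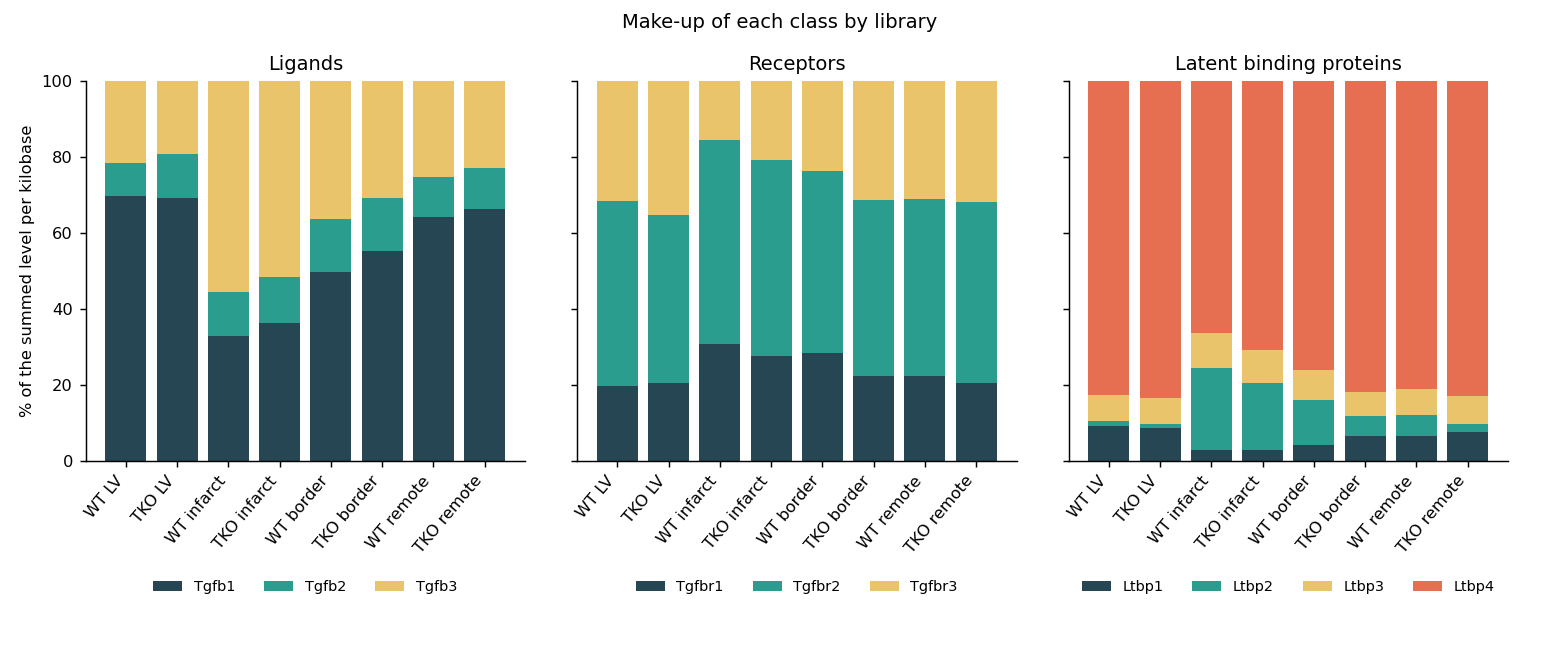
Share of each gene in the summed level of its class, per kilobase of longest coding transcript (stacked bars, %), for each of the 8 libraries. The share of *Tgfb1* among ligands is lowest in the infarct zone libraries (32.9% in WT and 36.3% in TKO), and *Ltbp4* is the largest part of the latent binding proteins in all 8.

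*Tgfbr1* (ENSMUSG00000007613, chromosome 4, 47353222 to 47414931, plus strand), the type I kinase receptor, stood in WT hearts at 17.7 (left ventricle), 67.0 (infarct), 33.6 (border), and 23.0 scaled CPM (remote). In TKO hearts the values were 15.0, 48.8, 22.0, and 18.4. WT was above TKO in all 4 regions. The infarct zone rise was 3.51-fold (log2 1.81 ± 0.12, adjusted p = 0.000314).

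*Tgfbr2* (ENSMUSG00000032440, chromosome 9, 116084293 to 116175360, minus strand), which binds the ligand first, was the most abundant receptor per kilobase in all 8 libraries, with 44.3% to 53.8% of the summed receptor level. It ran from 46.1 scaled CPM in the TKO left ventricle to 165 in the WT infarct zone and rose 2.74-fold in the infarct zone (log2 1.45 ± 0.11, adjusted p = 0.000373). WT exceeded TKO in each region. *Tgfbr3* (ENSMUSG00000029287, chromosome 5, 107106570 to 107289629, minus strand), the co-receptor betaglycan, kept a narrow range of 27.6 to 39.2 scaled CPM. Its 1.30-fold rise in the infarct zone (log2 0.38 ± 0.12, adjusted p = 0.0285) was not called without the TKO left ventricle, either infarct zone, or either or both border zone libraries (adjusted p 0.0507 to 0.143). Its share of the receptors per kilobase was 31.5% in the WT left ventricle and 15.5% in the WT infarct zone.

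*Ltbp2* had the largest infarct zone difference of the 10 genes. *Ltbp2* (ENSMUSG00000002020, chromosome 12, 84783212 to 84876532, minus strand) encodes the LTBP that does not bind latent TGF-β and that associates with fibrillin and elastic fibers. Its counts in WT hearts were 193 (left ventricle), 17006 (infarct zone), 3274 (border zone), and 1136 (remote zone), and its TKO counts were 133, 10858, 1147, and 413. In scaled CPM these were 7.04, 402, 106, and 37.3 in WT and 5.14, 304, 38.7, and 13.7 in TKO. In both genotypes the order was infarct zone, border zone, remote zone, left ventricle. The infarct zone rise was 59.2-fold (log2 5.89 ± 0.37, adjusted p = 0.000301).

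*Ltbp4* (ENSMUSG00000040488, chromosome 7, 27305136 to 27337692, minus strand), which is also needed for elastic fiber assembly, was the most abundant LTBP, with 328 to 980 scaled CPM and 66.5% to 83.4% of the summed LTBP level per kilobase. It rose 2.95-fold in the infarct zone (log2 1.56 ± 0.14, adjusted p = 0.000675), and the share of *Ltbp2* went from 1.39% in the WT left ventricle to 21.7% in the WT infarct zone. *Ltbp3* (ENSMUSG00000024940, chromosome 19, 5740904 to 5758532, plus strand), which helps secrete the latent complex, went from 26.7 to 129 scaled CPM in WT and from 26.7 to 114 in TKO between the left ventricle and the infarct zone. This rise was 4.55-fold (log2 2.18 ± 0.16, adjusted p = 0.000356). *Ltbp1* (ENSMUSG00000001870, chromosome 17, 75005568 to 75392512, plus strand) was the only member not called, with an infarct zone value 1.13-fold the left ventricle (log2 0.18 ± 0.13, adjusted p = 0.276) and a range of 36.7 to 48.8 scaled CPM.

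Altogether 9 of 10 members were higher in the infarct zone than in the left ventricle at an adjusted p under 0.05, where 28.2% of the 12999 genes tested were called higher. The members' median log2 difference was 1.63, against 0.02 over all genes. These p-values rest on 1 library per genotype and region, with the genotypes standing in for replicates, so they bear on libraries and not on mice. Leaving out 1 library or region at a time left 7 or 8 members called, with *Tgfb1* and *Tgfbr3* the calls that were lost. With total counts alone as library sizes, the median of all genes moved to 0.71 on the log2 scale and calls went from 3670 higher and 3715 lower to 7869 higher and 1084 lower. Under that scaling the *Ltbp1* difference was 0.87 on the log2 scale and was called, near the shift of all genes.

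Cell type markers moved with the zones. The summed level of 8 fibroblast markers was 1872 scaled CPM in the WT and 1849 in the TKO left ventricle and 8255 and 7218 in the infarct zones, with 8 of 8 called higher. The 8 activated fibroblast markers summed to 223 and 185 in the left ventricles and 2635 and 1891 in the infarct zones, with 7 called higher. The 8 macrophage and leukocyte markers went from 175 and 149 to 650 and 467, with 8 called higher, and all 8 cardiomyocyte markers were called lower, from 35382 and 34184 to 7817 and 16246. Of the 8 smooth muscle and pericyte markers, which summed to 727 to 986 over the 8 libraries, 5 were called higher and 2 lower. Of the 8 endothelial markers, which summed to 895 to 1399, 1 was called higher and 2 lower. No marker had 3 counts or fewer in any library. The part of these cell types in the members' differences was not tested, and in bulk tissue more cells of a type and more RNA per cell cannot be told apart.

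Over both genotypes, the members' differences from the left ventricle were smaller in the border and remote zones. Not all members followed the infarct zone in each genotype. In the border zone only *Ltbp2* was called against the left ventricle (log2 3.44 ± 0.34, 10.8-fold, adjusted p = 0.0300), where 0.669% of all genes were called higher. *Tgfb3* had a log2 difference of 1.16 ± 0.18 (adjusted p = 0.0585) and *Tgfbr1* of 0.74 ± 0.12 (adjusted p = 0.0591). At an unadjusted p under 0.05 there were 7 members and 2333 of the 12999 genes tested. The DESeq2 Wald test called 576 genes there, 6 members among them (*Tgfb3*, *Tgfbr1*, *Tgfbr2*, *Ltbp2*, *Ltbp3*, and *Ltbp4*). The edgeR call for *Ltbp2* was lost without the WT border zone (log2 3.07, adjusted p = 0.144), the WT remote zone (0.0908), the TKO remote zone (0.0889), both remote zone libraries (0.0901), or both infarct zone libraries (0.0557), and 4 members were called without the TKO left ventricle. In the remote zone edgeR called no member and 0% of all genes, with 5 members and 1378 genes at an unadjusted p under 0.05. There DESeq2 called 162 genes, *Ltbp2* among them (log2 1.92), for which edgeR gave 1.94 ± 0.33 (adjusted p = 0.203).

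**Figure D3:**
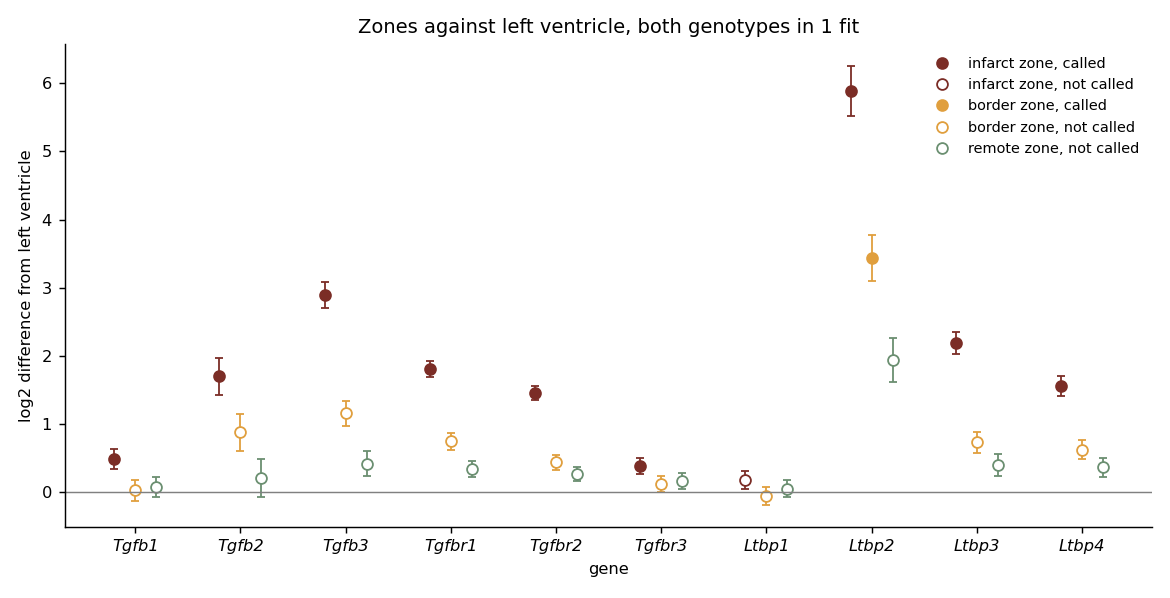
Log2 difference of the infarct, border, and remote zones from the left ventricle for each gene, from the edgeR fit over both genotypes (points) with SE (bars). Filled points have an adjusted p under 0.05, which holds for 9 genes in the infarct zone, *Ltbp2* alone in the border zone, and none in the remote zone.

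Against the remote zone, 7 members were higher in the infarct zone (24.6% of all genes were). *Ltbp2* was 3.95 ± 0.33 higher on the log2 scale (adjusted p = 0.000989) and *Tgfb3* 2.47 ± 0.18 (adjusted p = 0.000852). *Tgfb1* (0.41 ± 0.15, adjusted p = 0.0588), *Tgfbr3* (0.22 ± 0.11, adjusted p = 0.149), and *Ltbp1* (0.12 ± 0.13, adjusted p = 0.445) were not called. Under total counts alone, where calls went from 3204 higher and 3226 lower to 7705 and 918 and the median of all genes to 0.66, all 3 were called as well.

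Most members were lower in TKO than in WT after MI. Dividing each TKO library by its WT counterpart gave ratios below 1 for 8 of 10 members in the infarct zone (49.2% of all genes), for 8 in the border (50.3%), for 8 in the remote (52.0%), and for 7 in the left ventricle (48.6%). The members' median ratios were 0.796 (infarct), 0.732 (border), 0.843 (remote), and 0.954 (left ventricle), with medians of all genes between 0.993 and 1.01. These ratios compare 2 libraries each and have no replicate check, and their 95% intervals cover counting error only. Some intervals of ratios below 1 held 1. Examples were *Ltbp4* in the infarct zone (0.988, 0.974 to 1.003) and *Ltbp3* in the left ventricle (0.998, 0.898 to 1.11).

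*Ltbp2* lay lowest of the members at the border, with a ratio of 0.364 (0.340 to 0.389), and in remote tissue, with 0.367 (0.328 to 0.412). Its infarct ratio was 0.756 (0.738 to 0.774), and its left ventricle ratio 0.729 (0.580 to 0.914). Set against the left ventricle of its own genotype, *Ltbp2* reached 15.1-fold at the WT border but 7.53-fold at the TKO border, and 5.30-fold against 2.67-fold in remote tissue. The infarct values were close, at 57.1-fold in WT and 59.1-fold in TKO.

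Counts of members past a fold, *Ltbp2* among them, were as follows. By at least 2-fold, 7 members were above their own left ventricle in the WT infarct zone (18.8% of all genes) and 7 in the TKO infarct zone (16.2%). By at least 1.5-fold, 6 members were above it at the WT border (12.3%) but 2 at the TKO border (10.5%), and 3 in WT remote tissue (8.87%) but 1 in TKO remote tissue (8.26%), which for 1 of 10 members is near the share of all genes. The members did not all go one way: *Tgfbr2* stood at 1.30-fold at the WT and 1.41-fold at the TKO border, and *Ltbp1* at 0.816-fold and 1.13-fold, whereas *Tgfb2* stood at 2.83-fold and 1.26-fold. *Tgfb1* was above its own left ventricle in WT (1.24-fold at the border, 1.26-fold in remote tissue). In TKO it was below (0.847-fold and 0.889-fold). These comparisons of 2 libraries each were not tested.

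The 3 ligands were below 1 in each of the 3 post-MI zones. The *Tgfb3* ratio was 0.681 (0.650 to 0.714) for the infarct, 0.586 (0.530 to 0.647) for the border, and 0.696 (0.614 to 0.790) for the remote zone, but 1.01 (0.860 to 1.17) for the left ventricle. The ratios of *Tgfb1* in the 3 zones were 0.810, 0.772, and 0.794 and those of *Tgfb2* 0.781, 0.691, and 0.781, with all intervals below 1. In the left ventricle the ratio of *Tgfb1* was 1.13 (1.02 to 1.25) and that of *Tgfb2* 1.55 (1.30 to 1.87). In these single pairs of libraries the ligands thus stood lower in TKO in the 3 post-MI zones and level or higher in the left ventricle. The test of a left ventricle departure, given below, called no ligand.

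Both signaling receptors were below 1 in all 4 regions. The *Tgfbr1* ratios were 0.850 (left ventricle), 0.729 (infarct), 0.655 (border), and 0.800 (remote), and the border interval ran from 0.593 to 0.724. *Tgfbr2* lay at 0.751, 0.779, 0.814, and 0.889 in that order. The co-receptor *Tgfbr3* ran from 0.891 in the remote zone to 1.10 in the border zone. *Ltbp1* ran from 0.917 in the left ventricle to 1.26 (1.17 to 1.37) in the border zone, and *Ltbp4* from 0.882 to 0.988 over the 4 regions. *Ltbp3* stood at 0.687 (0.636 to 0.742) in the border zone and 0.883 to 1.02 in the other 3 regions.

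**Figure D4:**
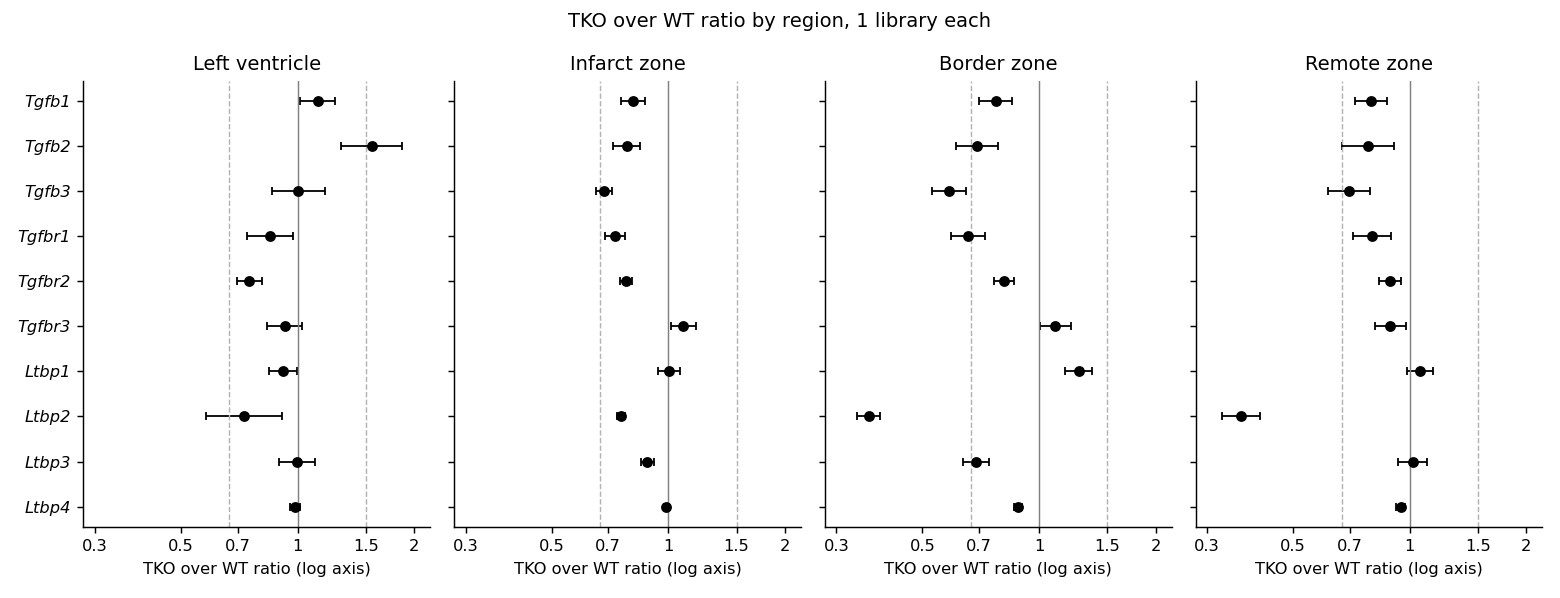
TKO over WT ratio of each gene in the 4 regions (log axis), 1 library per genotype and region, with 95% counting-error intervals. The solid line marks a ratio of 1 and the dashed lines a 1.5-fold difference, and *Ltbp2* lies farthest from 1 in the border zone (0.364) and remote zone (0.367), and *Tgfb2* in the left ventricle (1.55).

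At a 1.5-fold difference, 3 members were lower in the TKO border zone (*Tgfb3*, *Tgfbr1*, and *Ltbp2*), where 8.32% of all genes were. In the remote zone 1 was lower (*Ltbp2*; 6.33% of all genes), and in the infarct zone none was (6.19%). In the left ventricle *Tgfb2* alone was at least 1.5-fold higher (5.71%). Total counts alone put 6 members in the infarct zone and 5 in the border zone past 1.5-fold lower. This scaling set the median of all genes at 0.820 in the infarct zone and 0.934 in the border zone, and it turned *Tgfbr3* in the infarct zone from 1.09 to 0.893 and *Ltbp1* from 1.003 to 0.818, so that all 10 members lay below 1 there.

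The summed activated fibroblast markers gave ratios of 0.717 (infarct), 0.488 (border), 0.576 (remote), and 0.828 (left ventricle). In the same order 0, 2, 1, and 2 of these 8 markers were higher in TKO. At the border they were *Fn1* (54.5 scaled CPM against 16.4 in WT) and *Acta2* (95.3 against 80.3). *Postn* (450) and *Comp* (212) were the largest parts of the WT border sum of 817. For the macrophage and leukocyte markers the ratios were 0.719, 0.774, 0.758, and 0.851. Cardiomyocyte markers stood at 2.08, 1.23, 1.15, and 0.966. The summed fibroblast markers were lowered less than the activated fibroblast markers, with ratios of 0.874, 0.807, 0.865, and 0.988 in the same order. Endothelial markers stood at 1.15, 0.959, 0.940, and 0.895, and smooth muscle and pericyte markers at 1.12, 1.03, 1.05, and 1.002. The part of these cell types in the members' ratios was not tested.

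Over the 4 regions together, no member differed between genotypes at an adjusted p under 0.05 with edgeR, where 0.138% of all genes were called. The additive fit, with region as a block, gave 4 members an unadjusted p under 0.05, as it did 2109 of all genes. In this fit the regions stood in for replicates, and whether they shared hearts is not stated. Its p-values, and those of the DESeq2 Wald test, therefore bear on libraries and not on mice. *Ltbp2* had a log2 difference of -0.96 ± 0.22 (adjusted p = 0.190), *Tgfb3* of -0.47 ± 0.13 (adjusted p = 0.203), *Tgfbr1* of -0.41 ± 0.08 (adjusted p = 0.170), and *Tgfbr2* of -0.31 ± 0.08 (adjusted p = 0.191). TKO was below WT in 4 of 4 regions for *Ltbp2*, *Tgfbr1*, and *Tgfbr2*, and in 3 of 4 for *Tgfb3*. The DESeq2 Wald test, which called 342 genes against 18 with edgeR, called *Ltbp2* (adjusted p = 0.00179), *Tgfbr1* (0.0292), and *Tgfbr2* (0.0445). Estimates near 0 changed sign with the scaling: *Ltbp1* was 0.08 and became -0.03 with total counts alone, and *Tgfbr3* was -0.00 and became 0.01 with DESeq2 size factors. Total counts alone also shifted the median of all genes to -0.11 and the calls from 10 higher and 8 lower to 12 and 44.

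Whether the genotype difference of 1 region departed from that of the other 3 was tested in the same way. No member was called in any region, where 0.646% of all genes were called for the left ventricle, 0.00769% for the infarct zone, and 0% for the border and remote zones. At an unadjusted p under 0.05 there were 2179 of the 12999 genes for the left ventricle, the 3 ligands among them. There were 1018 genes for the infarct zone, 196 for the border zone, and 223 for the remote zone, none of them a member. The left ventricle came nearest for the ligands. *Tgfb2* departed upward by 1.05 ± 0.16 on the log2 scale (adjusted p = 0.0652), *Tgfb3* by 0.62 ± 0.17 (adjusted p = 0.171), and *Tgfb1* by 0.51 ± 0.12 (adjusted p = 0.154). With total counts alone the *Tgfb2* departure was 1.19 (adjusted p = 0.027). The DESeq2 Wald test called no member in any region, and it called 280, 288, 7, and 12 genes for the left ventricle, infarct, border, and remote zones.

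Genes that act around the members were followed in 6 lists, chosen with earlier results of these data known. Their infarct zone counts below stand beside 28.2% of all genes called higher there. Of 15 genes that activate latent TGF-β or hold it at the cell surface, 14 were tested, and 9 were higher and 2 lower in the infarct zone. *Thbs1*, the latency-activating thrombospondin, rose 8.88-fold, *Mmp2* 7.90-fold, *Mmp9* 7.08-fold, and *Itgb8*, an integrin subunit that binds the propeptide, 6.93-fold. The lower genes were *Itgb6*, an epithelial integrin subunit, and *Furin*, the protease that cuts the TGF-β precursor. The median log2 difference of this list was 1.45.

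Of 12 matrix partners of the latent complex, 11 were higher (median log2 2.44), against 28.2% of all genes. *Mfap4* rose 22.2-fold, *Eln* (elastin) 10.5-fold, *Adamtsl2* 10.4-fold, and *Mfap5* 9.14-fold. Ligand-binding matrix proteins and soluble inhibitors were higher for 9 of 11 tested of 14 (median log2 2.12), led by *Fmod* (fibromodulin), which rose 45.6-fold, *Bgn* (biglycan, 10.4-fold), *Chrdl1* (8.31-fold), and *Fstl1* (8.19-fold). All 15 genes of a list known to respond to TGF-β were higher (median log2 3.19), with *Comp* up 87.4-fold, *Cthrc1* 45.6-fold, *Timp1* 20.9-fold, and *Lox* 19.6-fold. In that list 7 of 15 genes are also fibroblast or activated fibroblast markers here. As the list was chosen with earlier results of these data known, its count is no independent support, and TGF-β activity was not tested.

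Downstream, 9 of 15 SMADs and SMAD regulators were higher and 1, *Zfyve9*, a SMAD anchor at endosomes, was lower (median log2 0.79). The higher genes were *Smad1*, *Smad6*, *Smad7*, *Smad9*, *Ski*, *Skil*, *Smurf2*, *Tgif1*, and *Pmepa1*. *Smad2*, *Smad3*, and *Smad4* were not called against the left ventricle. *Pmepa1*, a feedback inhibitor, rose 3.95-fold, *Tgif1* 3.28-fold, *Skil* 3.18-fold, and the inhibitory *Smad7* 2.71-fold. Of 12 other receptors and co-receptors of the superfamily, 10 were tested and only *Acvrl1* (2.13-fold) and *Acvr1* (2.07-fold) were called, with a median log2 of 0.21. Of all genes, 28.2% were called higher. The members' own median of 1.63 lay between these lists.

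In the border zone 7 of the 77 list genes tested were called higher, where 0.669% of all genes were. They were *Comp* (10.4-fold), *Fmod* (7.42-fold), *Timp1* (6.21-fold), *Lox* (4.42-fold), *Mfap5* (3.14-fold), *Col1a1* (2.85-fold), and *Skil* (1.72-fold). No list gene was called in the remote zone against the left ventricle, and none between genotypes over the 4 regions. Between genotypes *Ptprc*, a leukocyte marker, was the only marker called (log2 -0.67, adjusted p = 0.0431, edgeR). The genotype estimates were negative for all 15 response genes (median log2 -0.47), for 11 of 12 matrix partners (-0.42), and for 12 of 14 activation genes (-0.31), beside 9 of the 10 members (-0.19), among which *Tgfbr3* changed sign with the scaling, and a median of -0.00 over all genes. In the remaining lists, 3 of 11 inhibitors (median log2 -0.32), 4 of 15 SMADs and regulators (-0.11), and 2 of 10 other receptors (-0.08) had positive estimates. Among genes with at least 20 counts in a pair of libraries, TKO over WT ratios of the response genes had medians of 0.546 at the border and 0.909 in the left ventricle, and those of the matrix partners 0.562 and 1.06. In the infarct and remote zones these medians were 0.741 and 0.675 for the response genes and 0.782 and 0.758 for the matrix partners. At the border the other lists had medians of 0.69 (activation), 0.74 (inhibitors), 0.92 (SMADs and regulators), and 0.93 (other receptors).

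**Figure D5:**
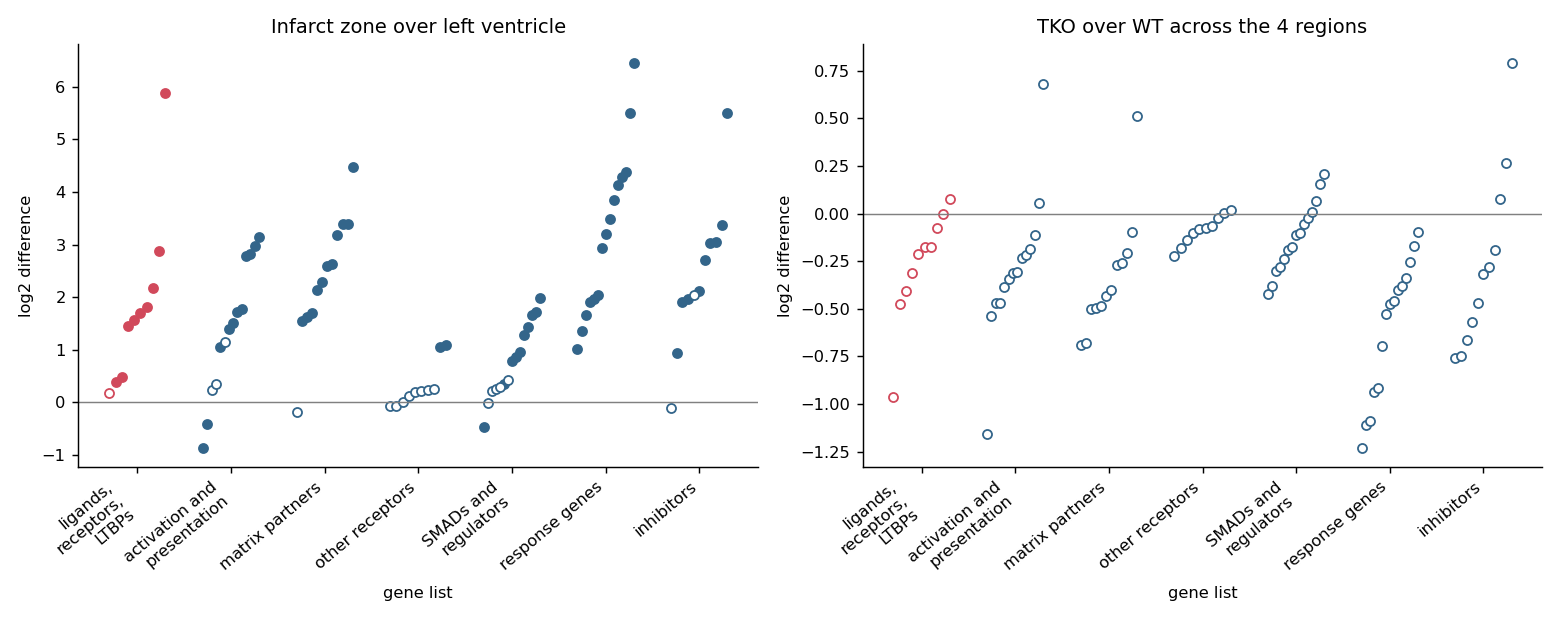
Log2 difference of every tested gene in the 10 members (red) and the 6 lists (blue), for the infarct zone over the left ventricle (left) and TKO over WT across the 4 regions (right), with filled points at an adjusted p under 0.05. On the left 9 members and all 15 response genes are filled, and on the right no point is filled.

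The genes with the pattern most like each member were found by the root mean square (RMS) difference of log2 levels, each centred on its mean over the 8 libraries. As the smallest RMS values were picked, they lie below the median over all genes by construction. *Tgfbr1* lay nearest to *Tgfbi*, a matrix protein named for its induction by TGF-β (RMS 0.0672), *Il1r1* (0.0877), and *Igfbp3* (0.0968). The median over all genes was 0.747. *Ltbp2* lay nearest to *Col12a1* (0.295), *Fmod* (0.296), and *Ccn5* (0.313), against a median of 2.21. *Tgfb3* lay nearest to *C1qtnf7*, *Cercam*, and *Gpr132* (0.0848 to 0.109), *Tgfb2* to *Serpinb1a*, *Tlr2*, and *C1qtnf6* (0.108 to 0.151), and *Tgfb1* to *Arf4*, *Stimate*, and *Smoc2* (0.0429 to 0.0533). *Tgfbr2* lay nearest to *Axl*, *Tcaf1*, and *Csf1r*, a macrophage marker (0.0573 to 0.0707). *Ltbp3* lay nearest to *Anpep*, *Mrc2*, and *Fam171b* (0.0731 to 0.0760) and *Ltbp4* to *Scd2*, *Arhgef40*, and *Plscr4* (0.0581 to 0.0849). For the flat members *Tgfbr3* and *Ltbp1* the nearest genes were *Rcn2*, *Hmgxb4*, and *Gcc1*, and *Galnt2*, *Cdk19*, and *Ercc5*. All these likenesses share the 8 libraries and their scaling.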

How the data were processed

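Total RNA of 8 heart tissue libraries, 1 per genotype and region, was sequenced from male WT and TKO mice. Per the labels and methods, the authors used Trim Galore 0.6.5 for trimming, kallisto 0.46 (mm10, GRCm38) for quantification, and tximport to obtain gene values. The deposited table gives these estimated counts as whole numbers, without normalization, and the authors' own tests used edgeR 3.34.1. Kallisto shares reads among similar transcripts, so counts of overlapping or related genes are estimates. Whether the counting used strand is not given in the sources used here.

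Here R 4.3.3, edgeR 4.0.16, and DESeq2 1.42.0 were used. The filter kept 12999 genes whose mean CPM reached 1. The quasi-likelihood test was fitted to region plus genotype over all 8 libraries (3 residual degrees of freedom), and with an added term for the departure of 1 region (2 residual degrees of freedom), with Benjamini-Hochberg adjustment over all genes. The SE given with edgeR estimates was worked back from the test, as the absolute log2 difference divided by the square root of its F statistic. Ratios of 2 libraries carry exact (Clopper-Pearson) 95% intervals from counting error, and fold counts used a prior count of 2. Alternatives were total counts, DESeq2 size factors, mitochondrial DNA-encoded genes left out, TMM over 2 libraries, other filters, the DESeq2 Wald test, and each region left out, and, added after the data were seen, each single library left out.

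Named genes were the 10 members, *Tigar*, up to 4 called genes per list and comparison with the largest change, and the 3 genes nearest to each member. Some further genes of the lists were named after their values were seen. The members and lists were chosen with earlier results of these data known. Gene positions came from GENCODE M21 on GRCm38. Figures were made with Python 3.11.15 and matplotlib 3.10.9.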

Additional observations from a re-analysis of the deposited data

How the results depend on the processing

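The results rest on 1 library per group, so animal-to-animal spread was not measured, and the lowest member count was 133. The genotype fit itself pairs TKO and WT by region. By replicate number, no paired analysis was possible because each group holds 1 library. Single libraries or regions left out gave 7 to 8 members called for the infarct zone over the left ventricle (4716 to 7243 genes), 0 to 4 for the border zone (1 to 388 genes), 0 for the remote zone (0 to 65 genes), 7 to 8 for infarct over remote (2357 to 7550 genes), and 0 for genotype (3 to 80 genes). Genes called changed with total counts alone to 56 for genotype, 200 (2 members) for the border zone, 18 for the remote zone, 275 (1 member) for the left ventricle departure, and 5 for the border zone departure. With that scaling, 6 members in the infarct zone and 5 in the border zone were at least 1.5-fold lower in TKO. With DESeq2's Wald test 342 genes (3 members) were called for genotype, 576 (6 members) for the border zone, 162 (1 member) for the remote zone, and 280, 288, 7, and 12 for the departures of the left ventricle, infarct, border, and remote zones. At least 10 counts in every library gave 3 members for the border zone, 3 genes for the remote zone, and 140 and 0 for the departures of the left ventricle and infarct zone, and no filter gave 1 for the remote zone. The cause was not tested. Reversals were of log2 estimates that were not called. With total counts, they were *Ltbp1* for genotype (-0.0277) and the border zone (0.035), *Tgfbr3* (-0.0794) and *Ltbp4* (-0.176) for the infarct zone departure, and *Tgfb3* (0.0539) and *Ltbp4* (0.11) for the remote zone departure. *Tgfbr3* for genotype became 0.0088 with DESeq2 size factors, 0.00299 without mitochondrial genes, and 0.00906 with the Wald test. With libraries or regions left out, the ranges over all such fits were -0.0538 to 0.0566 for *Tgfbr3* and -0.0135 to 0.144 for *Ltbp1* in the genotype difference. For the border zone they were -0.221 to 0.288 for *Tgfb1* and -0.238 to 0.112 for *Ltbp1*, and for the remote zone -0.172 to 0.337 for *Tgfb1*, -0.272 to 0.778 for *Tgfb2*, and -0.0799 to 0.187 for *Ltbp1*.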

Other observations

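*Fn1* (fibronectin), a matrix partner of the latent complex and also an activated fibroblast marker here, was picked out after its values were seen. It was the 1 matrix partner not called in the infarct zone, with 66.4 scaled CPM in the WT left ventricle and 67.0 in the WT infarct zone, against 53.6 and 34.3 in TKO. The values are sums over transcripts, which were not analysed separately here. Border zone counts of *Fn1* were 504 in WT and 1616 in TKO, which gave a TKO over WT ratio of 3.33 (95% counting interval 3.01 to 3.69). Remote zone counts were 381 and 1212, with a ratio of 3.21 (2.86 to 3.62). Its infarct ratio was 0.512 (0.478 to 0.548), so the WT and TKO libraries changed places between zones. Across the 4 regions its genotype difference was 0.51 ± 0.50 on the log2 scale (adjusted p = 0.631, edgeR), and the difference was not called.

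*Grem1*, a secreted inhibitor of bone morphogenetic proteins, was also picked out after its values were seen. Its infarct zone level was 3.69 scaled CPM in TKO (132 counts) against 0.851 in WT (36 counts), whereas the other 6 libraries lay between 0.131 and 0.843. Its difference between the infarct and remote zones passed the test (log2 3.36 ± 0.79, adjusted p = 0.0142, edgeR), but that between genotypes did not (0.79 ± 0.56, adjusted p = 0.499).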
